A study of Mus musculus with 8 samples.

Results

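Accessible chromatin marks promoters, enhancers and other DNA that regulatory proteins can reach. In ATAC-seq a transposase cuts such DNA in isolated nuclei, and stretches with many cuts are called as peaks. In whole liver most of the DNA comes from hepatocytes, the metabolic cells of the organ, with smaller amounts from Kupffer cells, endothelial cells, stellate cells, bile duct cells and lymphocytes. A peak list does not say which of them was open.

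Here the sites with a peak in every Old library and in no Young library (Old-only sites) were examined. Overlapping or touching peaks of 8 lists were merged into 82508 sites, and 157 of them were Old-only. They made up 3.56% of the 4415 sites held by exactly 4 lists, 0.388% of the 40511 sites with a peak in all 4 Old lists, and 0.19% of all sites. Presence and absence of peaks chose these sites, so their count and their absence from Young lists are a description and not a result. A site without a peak is not shown to be closed, since the lists hold only what the peak caller accepted. No value within the Young libraries could be given for these sites.

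The Old libraries came from 2 male C57BL/6 mice aged 23 months and the Young libraries from 2 male C57BL/6 mice aged 6 months, all kept on normal chow. From each mouse 2 technical libraries were made. Old replicates 1 and 2 are the libraries of mouse 3, and Old replicates 3 and 4 those of mouse 4. Young replicates 1 and 2 are of mouse 1, and Young replicates 3 and 4 of mouse 2. In the study's methods, C57BL/6N is named for young and C57BL/6J for aged animals, with ages other than those of the labels. Substrain and age therefore part the libraries in the same way and cannot be told apart. With 4 mice the smallest two-sided p of an exact permutation test is 0.333, and no test of age was made.

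Old lists held 56423 to 58068 peaks and Young lists 57827 to 61423. Each peak carried a fold enrichment, the ratio of its signal to the background of the same library as the authors' caller gave it. The median fold of a list was 5.59 to 5.69 in Old and 5.65 to 5.86 in Young libraries. The Young lists were the longer ones, except that Young replicate 4 had fewer peaks than Old replicate 1. In lists cut to the 56423 peaks of highest fold, 236 sites were Old-only, and 154 of the 157 were among them.

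Coordinates are those of the lists, whose build is mm9 in the submitters' processing notes. Of all 469408 peaks, 3589 on 9 chromosomes ended beyond the length those chromosomes have in GRCm38. None of the 638 peaks in Old-only sites did so. No gene annotation or genome of mm9 was used here, so genes, distances to start sites and sequences were not analysed here.

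By the number of lists that held a site, Old-only sites were the smallest class of all. Sites with a peak in all 4 Old lists numbered 37504 with 4 Young lists, 1864 with 3, 673 with 2, 313 with 1 and 157 with none. Sites in no Young list numbered 6710 in 1 Old list, 1508 in 2, 521 in 3 and 157 in 4. The mirror class, with a peak in all 4 Young lists and no Old list (Young-only sites), held 357 sites.

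**Figure D1:**
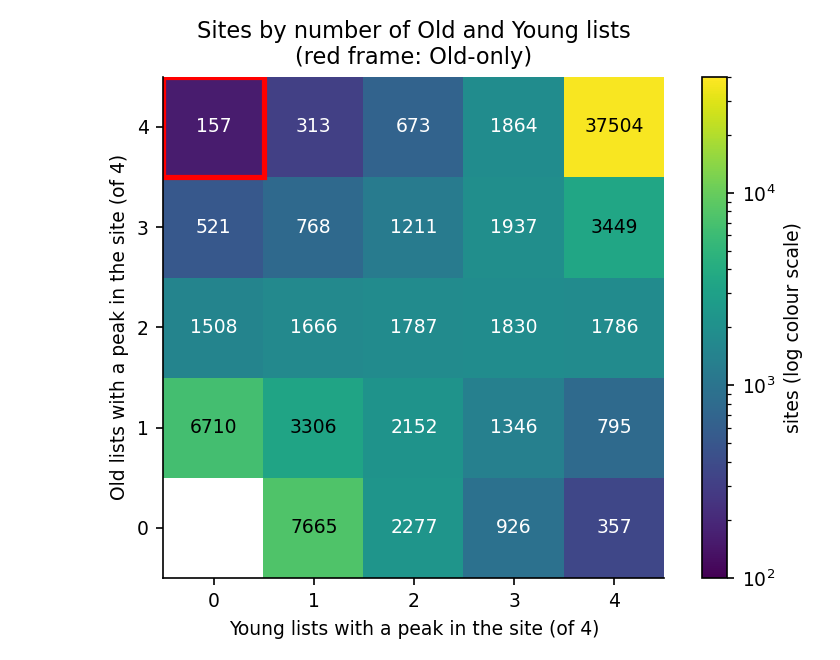
Number of sites by how many of the 4 Old lists (vertical axis) and of the 4 Young lists (horizontal axis) held a peak, on a log colour scale. The framed Old-only class held 157 sites, the opposite corner (Young-only) 357, and the class of all 8 lists 37504.

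Exactly 4 lists can be chosen from 8 in 70 ways. The 4 Old lists held the second highest number of sites of these 70 sets. Only the 4 Young lists held more. The other 68 sets held 25 to 128 sites each, with a median of 52. The 4 sets made of both libraries of 1 Old and 1 Young mouse held 121 sites (mice 1 and 3), 62 (mice 1 and 4), 60 (mice 2 and 4) and 57 (mice 2 and 3). The pair of mice 1 and 3 thus came nearer to the Old-only count than to the counts of the other 3 mixed pairs. The 16 sets with 1 Old and 3 Young lists had a median of 76, and the 36 sets with 2 of each and the 16 sets with 3 Old and 1 Young lists both had a median of 45.5.

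**Figure D2:**
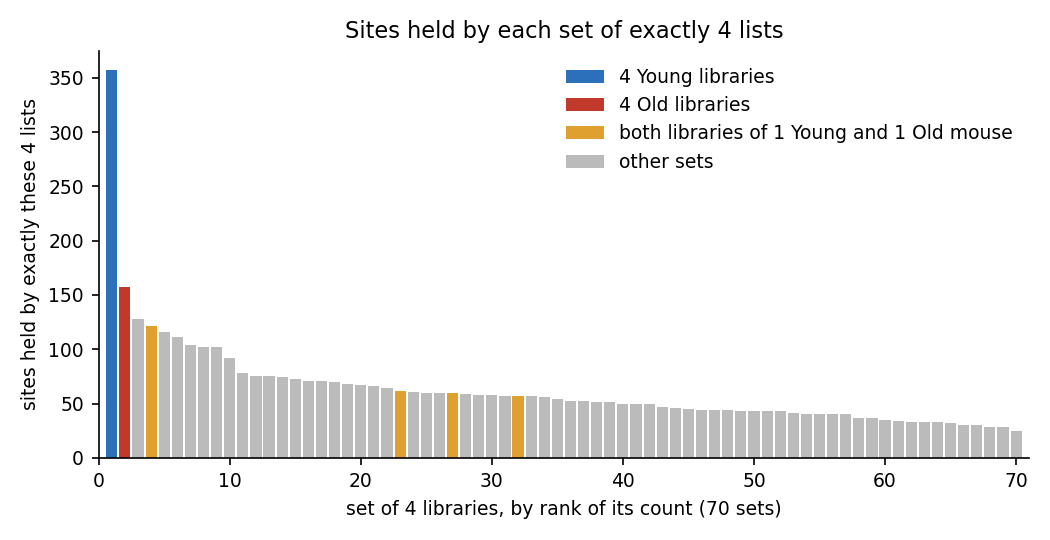
Number of sites (vertical axis) held by exactly the 4 lists of each of the 70 possible sets, ordered by count (horizontal axis). The 4 Young libraries stand first with 357 sites and the 4 Old libraries second with 157, above the 128 of the next set, while 3 of the 4 sets of 1 Young and 1 Old mouse lie between 57 and 62.

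Most Old-only sites were weak peaks. The fold was turned into a percentile within its own list, because a fold is a ratio to the background of its own library. The median fold of the Old-only sites was 4.71, 4.73, 4.73 and 4.73 in Old replicates 1 to 4, at median percentiles of 31.0, 32.4, 31.8 and 32.6. The lowest fold of a member was 2.61, 2.74, 2.14 and 2.45 in these libraries, and the highest 9.02, 9.02, 9.02 and 8.61. The 4 libraries were alike in level. Between 30 (Old replicate 2) and 45 (Old replicate 4) of the 157 sites reached the median of the library's own list.

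No Old list held a majority of these sites in its upper part, and few sites were high in more than 1 list. Of the 157 sites, 74 lay below the list median in all 4 Old lists, 45 reached it in 1, 20 in 2, 8 in 3 and 10 in all 4. Among all sites with a peak in all 4 Old lists, 51.3% reached it in all 4. Among the 3901 sites held by other sets of 4 lists, neither Old-only nor Young-only, 0.103% (4 sites) reached the median in each list that held them. For Old-only sites the share was 6.37% and for Young-only sites 1.68% (6 of 357). None of the 68 other sets held more than 1 such site.

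The lowest percentile of a site over its lists describes how firmly it was called throughout. Its median was 14.2 in Old-only sites, with quartiles of 10.1 and 27.6. It was 14.5 (quartiles 7.67 and 23.3) in Young-only sites, 13.9 (7.57 and 22.1) in other sets of 4 lists and 49.6 (24.5 and 72.0) in sites of all 8 lists. The medians of the classes of 4 lists lay close together, where many peaks had tied folds. Between percentiles of 13 and 14 the cumulative share rose from 31.8% to 45.9% in Old-only sites. In other sets of 4 lists it rose from 41.8% to 54.2%. The upper quartiles of the classes were less alike, and that of the Old-only sites exceeded those of the 68 other sets, which ran from 14.5 to 23.2. Since presence in the lists and the fold come from the same peak calls, these values are given as a description.

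**Figure D3:**
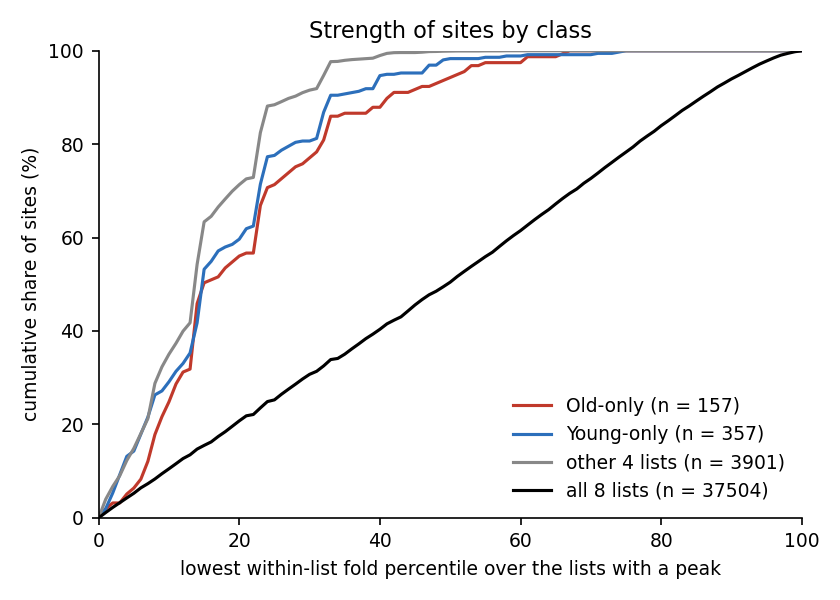
Cumulative share of sites (vertical axis, %) against the lowest percentile a site had in any list that held it (horizontal axis) for Old-only, Young-only and other sites of exactly 4 lists and for sites of all 8 lists. The classes of 4 lists rise steeply below a percentile of 35, with medians of 13.9 to 14.5, and the curve of all 8 lists has its median at 49.6.

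The sites just outside the rule had a like median strength, and few reached the list median in every list that held them. A single Young peak kept 313 sites out, and the lone Young list was Young replicate 1 in 66 of them, replicate 2 in 111, replicate 3 in 93 and replicate 4 in 43. The median fold of that lone Young peak was 4.31, 4.30, 4.73 and 4.10, respectively. The median over those sites of their median Old fold was 4.94, 4.83, 4.73 and 4.51 in the same order. The libraries that were most often the lone Young list, replicates 2 and 3, also had the longest lists. A single missing Old peak kept 521 sites out, and it was missing in Old replicate 1 for 165, replicate 2 for 125, replicate 3 for 121 and replicate 4 for 110. The median lowest percentile was 13.9 in both of these classes. Of the 313 sites 1 (0.319%) reached the list median in each list that held it, and so did 1 of the 521 (0.192%), against 6.37% of the Old-only sites. These shares are not like for like. The 313 sites had to reach it in the lone Young list as well, where median folds were below the Young list medians of 5.65 to 5.86. The 521 sites had to reach it in only 3 Old lists.

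Many peaks in Old-only sites had a fold that was a whole multiple of a step near 0.430 (317 of 638 peaks, or 49.7%). The share was 51.6% in Young-only sites, 50.3% in other sets of 4 lists and 12.2% in sites of all 8 lists. MACS2, which the processing notes name, writes a fold as the fragment pile-up plus 1, divided by the local background plus 1. If the folds were made that way, whole steps are peaks scored against the genome-wide background, and the number of steps less 1 is the pile-up. On that reading the 317 peaks had pile-ups of 7 to 20 fragments, with a median of 10. The step was 0.42959 to 0.42967 over the 8 lists, so on the same reading their genome-wide backgrounds were nearly equal. Read totals are unknown, so no interval can be put on a fold.

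The Old-only sites were next ranked by their lowest percentile, and the first 20 are described. Their folds ran from 5.04 to 9.02 with a median of 6.44. The first 10 are the sites that reached the list median in all 4 Old lists.

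The first-ranked site lay at chr13:101862248-101862817, with folds of 6.87, 9.02, 9.02 and 8.16 in Old replicates 1 to 4. Old replicate 1 was the lowest, so the ranges of the 2 mice overlapped. The nearest Young peak was 22.7 kb away and the nearest site of all 8 lists 49.6 kb. The second lay at chr5:10032196-10032620, with folds of 6.87, 7.73, 7.73 and 6.87, which is 16, 18, 18 and 16 whole steps. Each mouse had a library at 16 and a library at 18 steps. The nearest Young peak was 604 kb and the nearest site of all 8 lists 766 kb away, with 28 sites of any kind within 1 Mb.

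The third lay at chr14:88302202-88302731 (6.87, 6.44, 8.27 and 7.73), with 18 sites of any kind within 1 Mb, 352 kb from a Young peak and 485 kb from a site of all 8 lists. The fourth lay at chr18:68605367-68605787 (6.44, 6.44, 7.30 and 6.87), 28.5 kb from both. At both sites the libraries of mouse 4 had the higher percentiles. The fifth lay at chr1:26966814-26967458 (6.87, 6.01, 6.02 and 6.01), 222 kb from a Young peak and 973 kb from a site of all 8 lists. It is 1 of the 8 Old-only sites in which a list placed more than 1 peak.

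The sixth site, chr14:102179170-102179672 (8.71, 8.20, 5.97 and 7.48), ran the other way between the mice, with both libraries of mouse 3 above both of mouse 4. It lay 1.63 kb from a Young peak. The seventh, chr4:152393313-152393715 (6.12, 7.66, 6.87 and 5.88), and the eighth, chr12:30263076-30263438 (6.08, 5.77, 5.91 and 7.20), overlapped between mice and lay 16.1 and 26.6 kb from a Young peak. The ninth, chr12:70812125-70812625 (5.98, 5.66, 7.01 and 6.65), was higher in mouse 4 and lay 1.74 kb from a site of all 8 lists, the shortest such gap of the 10. The tenth, chr2:156397190-156397638 (5.59, 6.87, 7.30 and 6.84), overlapped between mice and lay 23.4 kb from a Young peak. Of these 10 sites, 3 were more than 100 kb from any site of all 8 lists.

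The sites ranked 11 to 20 had a lowest percentile of 38.8 to 48.7. They lay on chromosomes 1, 2 (2 sites), 9, 11, 12, 13, 16 and 17 (2 sites). The site at chr11:121709072-121709534, with folds of 5.16, 5.59, 6.87 and 5.16, lay 39.1 kb from a Young peak and 145 kb from a site of all 8 lists. The site at chr9:100154494-100155042 was 115 kb from any other site and higher in mouse 3 (8.20, 6.84, 5.16 and 6.44). At chr17:80654539-80654899 Old replicate 4 stood above the others (5.15, 5.16, 5.74 and 8.61). Over all 20, the libraries of the 2 mice overlapped in percentile at 12 sites, mouse 4 was higher at 6 and mouse 3 at 2.

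**Figure D4:**
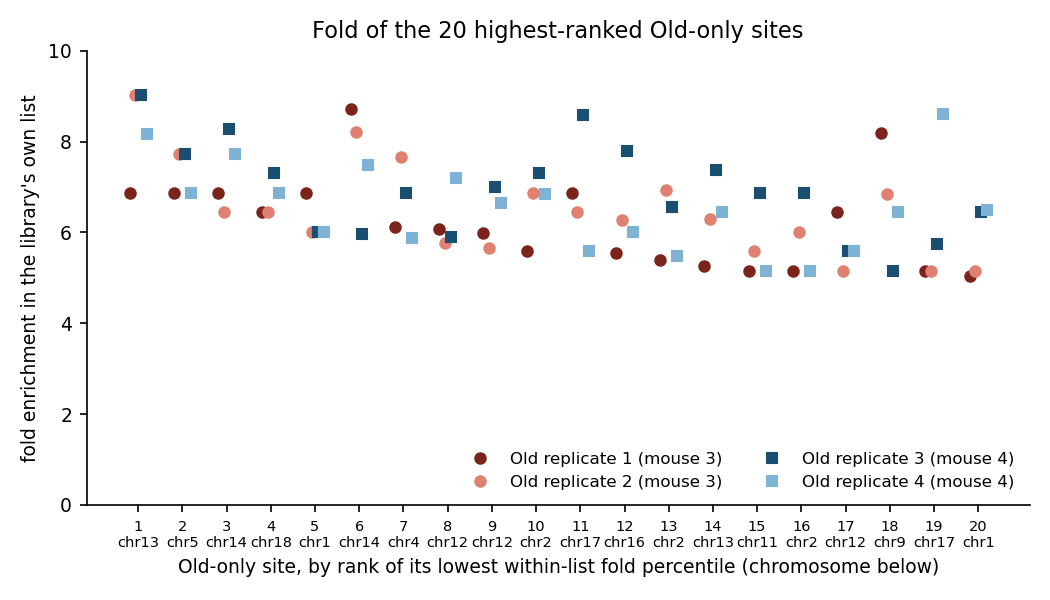
Fold enrichment in the library's own list (vertical axis) at the 20 Old-only sites with the highest lowest within-list percentile (horizontal axis, by rank with the chromosome below), 1 point per Old library. Folds run from 5.04 to 9.02, and circles (mouse 3) and squares (mouse 4) overlap in percentile at 12 of the 20 sites.

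The technical libraries were next compared within and between the 2 Old mice. The rule required a peak in all 4 Old lists, so a site with peaks in only 1 Old mouse could not be a member. The comparison therefore describes folds from the same peak calls that chose the sites. At 24 of the 157 sites (15.3%) both libraries of mouse 3 exceeded both of mouse 4 in percentile, at 31 (19.7%) the reverse held, and at 102 the mice overlapped. In the sites of all 8 lists these shares were 18.8% and 18.6%. Neither mouse stood above the other throughout. The median absolute difference between technical libraries was 11.8 percentile points in mouse 3 and 11.7 in mouse 4. Between the mice it was 10.0 points, here between means of 2 libraries, which vary less than single libraries. In sites of all 8 lists the same differences were 7.14, 7.09 and 5.57 points. The percentiles of the 157 sites correlated across sites with a Pearson r of 0.475 and 0.532 between technical libraries and 0.434 to 0.511 between mice, given as a description over 157 sites that share libraries. In sites of all 8 lists, which span a wider range of folds, r was 0.834 to 0.858.

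The median width of the Old-only sites was 442 bp (quartiles 389 and 533), against 410 in Young-only sites and 390 in other sets of 4 lists, where the medians of the 68 sets ran from 360.5 to 420. The median was 425 bp in sites of 4 Old lists and 1 Young list and 747 bp in sites of all 8 lists. The widths spanned 255 to 988 bp. The peaks themselves had a median width of 288, 294, 287 and 316 bp in Old replicates 1 to 4, which are narrow within lists whose medians were 410 to 413.5 bp. The stretch common to all 4 Old peaks had a median of 172 bp, against 182 in Young-only sites and 153 in other sets of 4 lists. It was absent in 9 Old-only sites (5.73%), against 3.08% and 5.41%. A list placed more than 1 peak in 8 Old-only sites.

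The 5 widest members lay at chr2:4874097-4875085 (988 bp, folds of 5.38, 6.94, 6.57 and 5.47), chr18:67502835-67503693 (858 bp), chr4:125070880-125071737 (857 bp), chr18:67487189-67488046 (857 bp) and chr1:108772235-108773088 (853 bp). The bases covered in all 4 Old lists numbered 68, 133, 202, 156 and 140 at these sites in the order given, a small part of each. At 3 of the 5 a list had placed more than 1 peak.

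Old-only sites seldom adjoined a site held by all 8 lists. The rule did not use this distance, but the same peak lists defined both kinds of site. Of the 157 sites, 6 (3.82%, 95% Wilson interval 1.76% to 8.09%) lay within 1 kb of such a site. This share was 11.5% in Young-only sites (interval 8.58% to 15.2%), 11.7% in other sets of 4 lists (10.7% to 12.8%) and 12.04% among the sites of all 8 lists themselves. Of the 68 other sets, 64 had a higher share and 4 a lower one. The neighbouring classes lay between, with 6.39% (4.17% to 9.66%) in sites of 4 Old lists and 1 Young list and 7.49% (5.52% to 10.1%) in sites of 3 Old lists alone. Both of these intervals overlapped that of the Old-only sites. The intervals cover counting error only and treat sites as independent.

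At 10 kb the interval of the Old-only sites overlapped those of Young-only sites and of other sets of 4 lists. It also overlapped those of sites of 4 Old lists and 1 Young list (37.7%, 32.5% to 43.2%) and of 3 Old lists alone (36.3%, 32.3% to 40.5%). It lay below that of the sites of all 8 lists (56.2%, 55.7% to 56.7%). Within 10 kb of a site of all 8 lists lay 44.6% of the Old-only sites (70 sites, interval 37.0% to 52.4%), against 53.8% of the Young-only sites (48.6% to 58.9%) and 48.5% in other sets of 4 lists (47.0% to 50.1%). Among the 65 sites that were Old-only when peaks needed a fold at or above the pooled median it was 13.8%, with 8 sites in common. The median gap of the 157 Old-only sites was 11.7 kb, and in 25 of the 68 other sets it was longer. It was also longer in sites of 4 Old lists and 1 Young list (13813 bp) and of 3 Old lists alone (15557 bp). Within 1 Mb on either side a median of 89 sites of any kind were found, against 93 for Young-only sites and 94 in other sets of 4 lists.

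A minority of Old-only sites lay far from any site of all 8 lists, 17 of them (10.8%) by more than 100 kb. The share was 9.80% in Young-only sites and 7.51% in other sets of 4 lists, where 11 of the 68 sets had a higher share. It was higher in sites of 4 Old lists and 1 Young list (11.5%) and of 3 Old lists alone (13.6%). Within 1 Mb of these 17 sites lay 0 to 168 sites of any kind, with a median of 44, so that some had ordinary surroundings. None of the 39 sites with a lowest percentile under 10 was so far away, while 5 of the 21 sites at 35 or above were. The median gap was 4.27 kb in the former and 23.4 kb in the latter. In the other classes the share was also higher at 35 or above than under 10, but it did not rise throughout in each. The share beyond 100 kb under a percentile of 10 and at 35 or above was 2.88% and 15.2% in Young-only sites. It was 4.94% and 16.7% in sites of 4 Old lists and 1 Young list. It was 8.28% and 14.8% in sites of 3 Old lists alone, and 3.44% and 4 of 80 in other sets of 4 lists. In these other sets the shares from 10 to 20 and from 20 to 35 were 8.62% and 11.6%, above the 5% at 35 or above. In sites of 3 Old lists alone the share from 20 to 35 was 18.1%, also above that at 35 or above. In Young-only sites the share at 35 or above was the highest.

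The most remote member, chr14:110578969-110579347, ranked 23rd. No other site lay within 1 Mb of it, and the nearest site of all 8 lists was 3753 kb away. On chromosome 5 the second-ranked site had a neighbour of its own kind, chr5:10189518-10189849, 157 kb off and 923 kb from a site of all 8 lists. It was the weaker of the pair, with folds of 5.59, 4.30, 4.30 and 3.87 in Old replicates 1 to 4. Each of these members was the nearest site of any kind to the other.

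**Figure D5:**
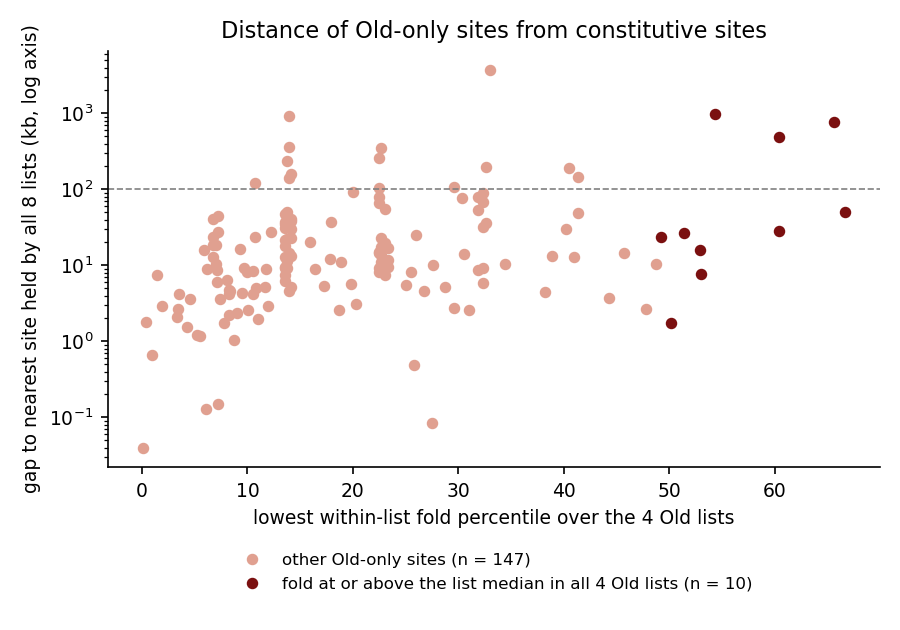
Gap in kb (vertical axis, log scale) from each Old-only site to the nearest site held by all 8 lists, against the lowest within-list fold percentile (horizontal axis), 1 point per site. Points above the dashed line at 100 kb number 17, and 3 of them are among the 10 dark points that reached the list median in all 4 Old lists.

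Some Old-only sites had a Young peak close by without touching. The median gap to a Young peak was 6102 bp, 23 of the 157 sites had one within 1 kb, and 9 within 200 bp. At these 9 the call depends on a short gap between peaks. For 54 of the 157 sites the nearest site of any kind was one of all 8 lists. These counts are not given for other classes. The median gap to the nearest site of any kind was 4786 bp, against 3956 bp in Young-only sites and 3941 bp in other sets of 4 lists.

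Old-only sites were found on 20 chromosomes and mostly 1 at a time. Pairs within 100 kb were formed by 10 of the 157, a count not given for other classes. They lay on chromosomes 2 (156397190 to 156397638 and 156410865 to 156411432), 6 (72576730 to 72577120 and 72577212 to 72577693), 12 (113032194 to 113032563 and 113038658 to 113039049), 13 (104369429 to 104369747 and 104381675 to 104382438) and 18 (67487189 to 67488046 and 67502835 to 67503693). The pair on chromosome 6 was 92 bp apart and weak, with folds of 3.05 to 3.21 in the former and 3.70 to 4.99 in the latter. The pair on chromosome 2 included the tenth-ranked site, and its partner had folds of 5.16, 6.44, 8.40 and 4.73. At the former site of the pair on chromosome 13 both libraries of mouse 3 (6.44 and 8.16) exceeded those of mouse 4 (4.30 and 4.73).

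Chromosome 5 held the most members, 15 of 157 (9.55%, 95% Wilson interval 5.88% to 15.2%), against 6.18% of all sites. Chromosomes 19 and X held 1 each (0.637%, interval 0.113% to 3.52%), against 3.13% and 1.96% of all sites, and Y held none. Young-only sites numbered 22 on chromosome 5, 15 on chromosome 19 and 3 on X. The interval of each of chromosomes 5, 19 and X contained the share of all sites, and no chromosome was tested.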

How the data were processed

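ATAC-seq peak lists of 8 liver libraries were analysed, with peaks called per library and not on pooled replicates. The deposited value of each peak is a fold, a ratio to the background of its own library made by the authors' peak caller. The submitters' processing notes name FastQC 0.10.0, Trim Galore 0.3.0, Bowtie2, Picard 1.98, MACS2 and mm9, while the methods of the study name mm10 and HOMER for these libraries. The caller's version and threshold are not given in the sources used here. Read totals are unknown.

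Overlapping or touching peaks were merged into sites, and a list held a site if any of its peaks lay in it. Where a list had several peaks in a site, the highest fold was taken. Percentiles are ranks of the fold within a list, with ties averaged. Gaps are the bases between 2 sites. A fold was a whole multiple of the step within 0.001 steps. Members, lists and rules were chosen with earlier results of these data known. The sites named are the 20 with the highest lowest percentile, the 5 widest and those within 100 kb of another Old-only site. Further sites (the most remote member, the neighbour on chromosome 5) were named after their values were seen. Nearest genes, start sites and motifs had been planned and were not analysed here, since they need an annotation and genome of mm9. No test between ages or classes of site was made, because presence in the lists chose the sites. Dixon's test was used only to flag single libraries. An exact permutation test over 4 mice could not reach a p of 0.05. The functions were tested on simulated lists. The software was Python 3.11.15 with pandas 2.3.3, numpy 2.4.6, matplotlib 3.10.9 and scipy 1.17.1.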

Additional observations from a re-analysis of the deposited data

Results flagged for a closer look

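Among the 4 Old libraries, 35 sets of values were examined with Dixon's test (the 31 named sites and 4 summary values), and 3 had a library far from the other 3. For 4 independent values chance gives about 1 in 20. Here the values were 2 technical libraries from each of 2 mice, with many folds on whole steps, so that rate is only a rough guide. At chr1:26966814-26967458 the fold in Old replicate 1 was 6.87, against 6.01, 6.02 and 6.01 in Old replicates 2 to 4. At chr17:80654539-80654899 the fold in Old replicate 4 was 8.61, against 5.15, 5.16 and 5.74 in Old replicates 1 to 3. The median fold of the 157 Old-only sites was 4.71 in Old replicate 1 and 4.73 in each of the others, a difference of less than 1 step of the fold values.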

How the results depend on the processing

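Of 75 alternative values (5 results under 15 settings), 43 stayed within the spread used for comparison. That was a factor of 1.5 for counts and the 95% Wilson interval for a share. For percentile and width it was 1 SD over the Old libraries of their median percentile (0.721) and median peak width (13.5 bp) in Old-only sites. The results judged by it were the lowest percentile and the site width, so that spread is only a rough guide. With a fold at or above the pooled median of 5.69 there were 65 Old-only sites, with a median width of 575 bp and 13.8% within 10 kb of a site of all lists. No Old list had a median above the pooled one, so all 65 reached the list median by construction. Their median lowest percentile of 55.1 was raised by the same threshold. Both values are counted among the 75. Of the 157 sites 8 were among these 65, so the stricter threshold chose largely different sites. Lists of equal size gave 236 sites, a percentile of 10.7 and 53.4% within 10 kb. Requiring 50% of a site to be covered in a list gave 152 sites, 88 of the 157 among them, with a percentile of 26.0, 28 sites at or above the median and 33.6% within 10 kb. Under each setting the sites of all lists were defined anew, so the shares within 10 kb do not have the same reference sites. Merging up to 200 and 1000 bp apart moved the percentile to 17.3 and 17.9 and kept 148 and 133 of the 157. Requiring only 1 library from each Old mouse gave 1576 sites of median width 348 bp. Without 1 library there were 201 to 322 sites, 11 to 16 of them at or above the median, with a percentile of 13.9 to 17.1, a width of 393 to 439.5 bp and 39.4% to 44.8% within 10 kb. Counts rise there because fewer lists have to hold or lack a peak. Leaving out a list removes a condition of the rule, so members stay by construction. Apart from these, the cause of the changes was not tested. Shares near start sites were not run, as no mm9 annotation was used here. No paired analysis was possible because the results come from counts of present and absent peaks and from no test.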
